A study of Mus musculus with 3 samples.

Results

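Cxcl1, Cxcl2, Cxcl3 and Cxcl5 encode 4 secreted CXC chemokines that draw neutrophils. They were followed across the cells of bone marrow, blood and an injured tendon in mice. The 4 genes were taken by symbol from the 27998 genes of the count tables, and were chosen by their measured levels across the cell types of these same libraries, so the levels given here are descriptions with no test. Transcripts of Cxcl1, Cxcl3 and Cxcl5 were counted only in the tendon library, and those of Cxcl2 were mostly there. Within the tendon the ligands divided between cell groups: neutrophils and myeloid cells had mostly Cxcl2, and mesenchymal cells mostly Cxcl1 and Cxcl5.

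The study addressed the immune response that follows a burn with tenotomy, a full transection of the Achilles tendon that leads to heterotopic ossification (HO), bone formed outside the skeleton. Each of 3 tissues gave 1 single-cell RNA library of unsorted cells from 10-week-old mice, which the study's methods describe as male C57BL/6J animals taken 3 days after the injury; how many mice went into a library was not given in the sources used here. All 3 tissues came from injured mice, so no uninjured group stands beside them. Bone marrow was flushed and freed of red cells by lysis. Blood was spun on a Ficoll gradient, its mononucleated cells were collected, and red cells were lysed in the same way. Blood neutrophils below are therefore those found in that fraction. The HO site, labelled tendon injury, was the only tissue digested with enzymes at 37 °C. With 1 library a tissue, the site, its preparation and the library cannot be told apart, and no comparison below has a replicate check.

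CXC chemokines carry a pair of conserved cysteines split by another residue. Those with a Glu-Leu-Arg (ELR) motif ahead of the cysteines signal through Cxcr2, and some also through Cxcr1, on neutrophils, and the 4 ligands here belong to that group. Cxcl1 (KC), Cxcl2 (MIP-2) and Cxcl3 are close relatives, whereas Cxcl5 (LIX) is a more distant one. In injured tissue, interleukin-1, tumor necrosis factor and interleukin-17 induce such genes through NF-kB, and AU-rich elements in the 3′ ends of their mRNAs shorten the life of the transcripts.

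In GENCODE M21 on GRCm38 the 4 genes lay on the plus strand of chromosome 5 within 146579 bases, together with 3 relatives. In order of position these were Cxcl5 (chr5:90759360-90761624, ENSMUSG00000029371), Ppbp, Pf4, Cxcl3 (chr5:90786103-90789600, ENSMUSG00000029379), Cxcl15, Cxcl1 (chr5:90891241-90893115, ENSMUSG00000029380) and Cxcl2 (chr5:90903871-90905938, ENSMUSG00000058427). Cxcl1 and Cxcl2 were neighbours, 10755 bases apart, yet their highest levels were found in different cells. The promoters below are shown because 3 of the 4 genes share the run GGGAATTTCCC, which Ppbp, Pf4 and Cxcl15 lack in the same window. They come from the 250 bases ahead of the RefSeq start on GRCm38.p6 and end before the earlier of the RefSeq and GENCODE starts, 5′ to 3′ on the plus strand, for Cxcl1 at chr5:90890995-90891240, Cxcl2 at chr5:90903649-90903870 and Cxcl3 at chr5:90785851-90786100. Capitals mark the 2 runs of at least 8 bases that all 3 promoters hold in the 250 bases ahead of the start: GGGAATTTCCC, which has the form of the NF-kB consensus, and ATAAAAGG, which is TATA-like.
Cxcl1: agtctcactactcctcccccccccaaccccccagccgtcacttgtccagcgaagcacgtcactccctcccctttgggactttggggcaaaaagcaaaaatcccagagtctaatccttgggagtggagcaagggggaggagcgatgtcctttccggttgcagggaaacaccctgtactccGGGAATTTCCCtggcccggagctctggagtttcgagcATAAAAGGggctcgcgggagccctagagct
Cxcl2: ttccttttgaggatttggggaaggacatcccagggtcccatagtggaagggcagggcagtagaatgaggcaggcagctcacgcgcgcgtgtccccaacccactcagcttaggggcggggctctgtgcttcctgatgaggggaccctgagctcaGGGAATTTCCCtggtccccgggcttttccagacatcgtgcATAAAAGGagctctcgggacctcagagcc
Cxcl3: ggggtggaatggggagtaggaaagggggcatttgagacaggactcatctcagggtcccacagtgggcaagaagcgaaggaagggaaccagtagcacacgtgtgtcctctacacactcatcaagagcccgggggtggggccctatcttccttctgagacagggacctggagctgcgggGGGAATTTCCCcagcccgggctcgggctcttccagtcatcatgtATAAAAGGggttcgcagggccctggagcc
After GGGAATTTCCC, 56, 58 and 62 further bases are shown for Cxcl1, Cxcl2 and Cxcl3, and ATAAAAGG followed it after 26, 29 and 33 bases. The last base shown is followed by the RefSeq start for Cxcl3, but lies 4 and 28 bases short of it for Cxcl1 and Cxcl2, whose GENCODE starts come first. Both were found by comparing these promoters and then searched on both strands of windows of 300 bases around the starts of all genes. GGGAATTTCCC stood in 14 of 32851 windows (0.0426%) and ATAAAAGG, with which it does not overlap, in 1.76%. The window of Ppbp also held ATAAAAGG, on the opposite strand. A match is a description of letters and no evidence of binding. No window was found for Cxcl5.

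The 3′ ends were alike in another way. The 3′ UTR of Cxcl1 held 7 ATTTA pentamers in 592 bases, that of Cxcl2 11 in 1494, that of Cxcl3 5 in 645 and that of Cxcl5 5 in 1111. These are 11.8, 7.36, 7.75 and 4.50 pentamers a kilobase, beside a median of 1.35 over 19732 genes with a 3′ UTR of at least 100 bases. The longer TATTTAT, found at least once in 29.1% of those genes, occurred 6, 7, 2 and 1 times. Cxcl2 and Cxcl3 transcripts shared an unbroken run of 110 bases, but it lay 1687 and 850 bases from their 3′ ends, which this chemistry reads, and no other pair shared more than 23 bases in a row.

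Counts were unique molecular identifiers (UMIs), each standing for 1 captured transcript. The marrow, blood and tendon libraries held 1855, 2241 and 5629 barcodes with 49580625, 22542581 and 90621052 UMIs, and 1813, 2146 and 4780 cells were kept. At most 6 barcodes were shared by any 2 libraries. Cells were clustered within each library, and a cluster was named from marker genes; a name such as "neutrophil" below means neutrophil-like by those markers. A level is the summed UMIs of a gene in each 1000000 UMIs of a cell group (counts per 1000000, CPM), with an exact Poisson 95% interval in brackets that covers counting error only. Such counts do not depend on transcript length, but capture can differ between genes. In the tendon, 560 neutrophils, 1454 monocyte/macrophage cells, 702 mesenchymal, 295 endothelial, 185 keratinocyte, 179 dendritic and 105 mural cells were found. The mesenchymal cells expressed Col1a1 at 5168 CPM. Of the tendon-related markers, Thbs4 was at 571, Fmod at 118, Tnmd at 37.9 and Scx at 22.6. Neutrophils had S100a8 and S100a9 in all 3 tissues, with Camp and Ngp, genes of maturing granules, at 26033 and 27586 CPM in marrow against 638 and 791 in tendon.

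5 tendon clusters stayed unnamed. Of these, cluster 1 (922 cells, led by Plac8, Chil3, Ly6c2 and Ccr2) and cluster 13 (74 cells, led by Arg1, Cxcl3, Mmp12, Il7r and Spp1) had 2 monocyte/macrophage markers each, below the 3 asked for, and are called by number. Cxcl3 and Cxcl5 thus stand among the leading genes of cluster 13 and of one mesenchymal cluster, although the ligands were kept out of the genes used for clustering.

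The whole tendon library held 223020 UMIs of Cxcl2, 58620 of Cxcl1, 51520 of Cxcl5 and 7453 of Cxcl3. Cxcl2 had at least 1 UMI in 75.2% of tendon cells, Cxcl1 in 42.6%, Cxcl3 in 18.5% and Cxcl5 in 16.2%. In marrow and blood, with 48444503 and 21860254 UMIs in kept cells, no UMI of Cxcl1, Cxcl3 or Cxcl5 was counted, which allows up to 0.0619 and 0.137 CPM at 3 counts a library. Cxcl2 had 74 UMIs in marrow and 244 in blood.

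**Figure D1:**
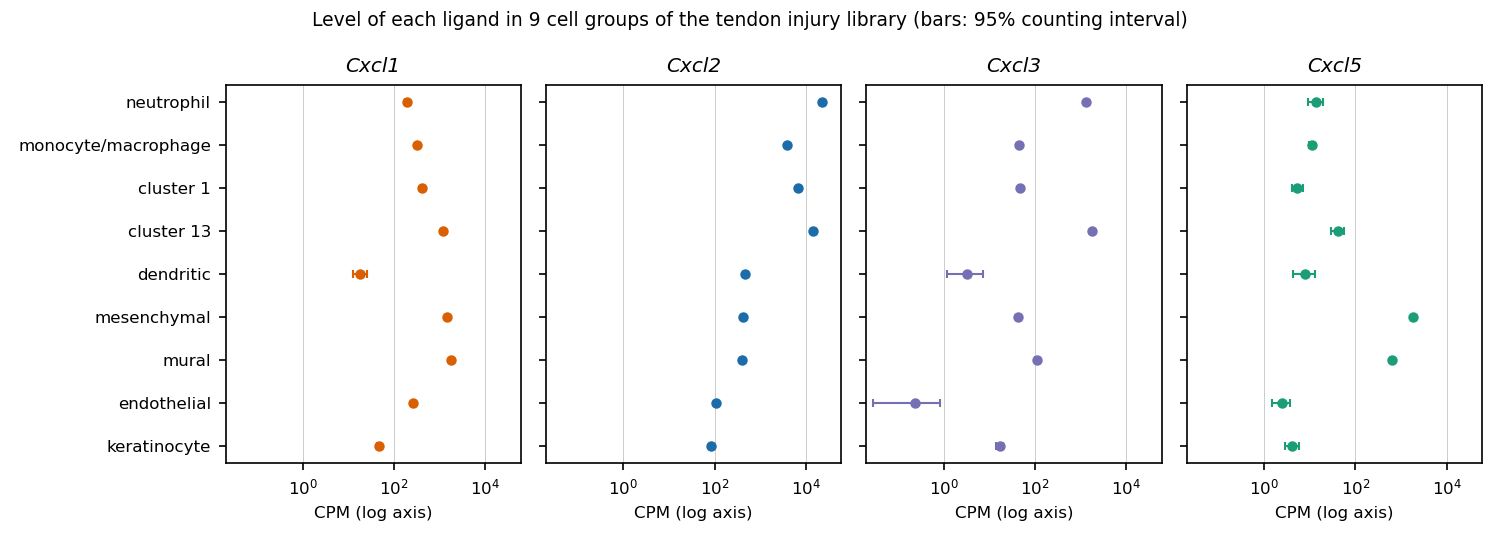
Level of each ligand (CPM, log axis) in 9 cell groups of the tendon injury library; points are summed counts of a group and bars the 95% Poisson interval, often smaller than the point. Cxcl2 is highest in neutrophils (22830), Cxcl1 in mural (1774) and mesenchymal cells (1470), Cxcl3 in cluster 13 (1786) and neutrophils (1309), and Cxcl5 in mesenchymal cells (1876).

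Cxcl2 was the most abundant of the ligands and the one with the widest reach. Its level in tendon neutrophils was 22830 CPM (22633 to 23029), from 51222 UMIs in 560 cells. That made it the 5th most abundant gene of these neutrophils, and 98.9% of them (97.7 to 99.6, Clopper-Pearson) had at least 1 UMI. Cluster 13 followed with 14185 (13934 to 14440), where Cxcl2 ranked 3rd among all genes and was present in each of the 74 cells. Next came cluster 1 with 6644 (6593 to 6695) and monocyte/macrophage cells with 3908 (3881 to 3936). Below these the level was 2267 in cluster 14 (53 cells with mast cell and lymphocyte genes), where 1 cell held 69.9% of the UMIs, and 1130 in cluster 10 (120 cells led by Acp5, Mmp9 and Ctsk). Dendritic cells had 475, mesenchymal cells 418 (410 to 426) and mural cells 407 (383 to 431), and the last pair had overlapping intervals. The lowest levels were 108 in endothelial cells, 84.3 in keratinocytes and 19.9 in cluster 12, a cluster with muscle genes. In dendritic cells and keratinocytes, 2 cells each held 45.2% and 54.5% of the Cxcl2 UMIs.

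Counted per cell, the gap between neutrophils and macrophages was smaller. Tendon neutrophils had a median of 3492 UMIs each and monocyte/macrophage cells 13410, so Cxcl2 averaged 91.5 UMIs a cell in neutrophils and 52.3 in monocyte/macrophage cells, a ratio of 1.75, whereas the ratio of levels in CPM was 5.84 (5.78 to 5.91). By number of transcripts, the tendon's Cxcl2 was spread over 34.1% in monocyte/macrophage cells, 29.1% in cluster 1, 23.0% in neutrophils and 5.44% in cluster 13. Thinned to 1000 UMIs a cell, Cxcl2 was still found in 96.1% of neutrophils, against 69.9% of monocyte/macrophage cells, 71.5% of cluster 1, 20.3% of mesenchymal cells and 4.35% of keratinocytes. The 14 neutrophil markers summed to 0.150% of their neutrophil level in monocyte/macrophage cells, where Cxcl2 stood at 17.1% of its neutrophil level. In mesenchymal cells the markers stood at 0.196% and Cxcl2 at 1.83%, but in keratinocytes the 2 shares were close, 0.400% and 0.369%. The part of neutrophil transcripts in these levels was not tested.

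Neutrophils varied widely among themselves in Cxcl2. The 10th percentile of their single-cell level was 2986 CPM, the median 15100 and the 90th percentile 63690, and the cell with the most had 1165 UMIs. The 56 cells with the highest counts, 1 in 10, held 37.8% of the Cxcl2 UMIs. Among the 3 macrophage clusters the level was 4371 in cluster 0 (led by Ppbp, Arg1, Pf4 and Trem2), 3663 in cluster 4 (Ccl8, Cd163, Mrc1 and Folr2) and 1796 in cluster 9 (Rsad2, Ifit2 and other interferon-induced genes). In CPM, cluster 0 stood 1.19-fold above cluster 4 (1.17 to 1.21) and cluster 4 2.04-fold above cluster 9 (1.97 to 2.11). Cells of cluster 4 were deeper than those of cluster 0, with medians of 15041 and 12444.5 UMIs. Counted in UMIs per cell, cluster 4 was slightly above cluster 0, so no direction is given for that pair.

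Cxcl3 was the rarest of the 4 and was concentrated in the cell groups with the most Cxcl2. It reached 1786 CPM (1698 to 1878) in cluster 13 and 1309 (1263 to 1358) in neutrophils. Mural cells came next with 110.5 (98.6 to 124), but 1 cell held 48.1% of those UMIs. Cluster 1, monocyte/macrophage and mesenchymal cells lay close together at 47.9 (43.7 to 52.5), 45.2 (42.2 to 48.3) and 43.4 (40.9 to 46.0), and their intervals overlapped. Keratinocytes had 16.8, and endothelial cells 2 UMIs in 295 cells. Neutrophils held 39.4% of the library's Cxcl3 UMIs and the 74 cells of cluster 13 held 20.5%. In contrast to Cxcl2, Cxcl3 was missing from many neutrophils: 51.4% had a UMI at their own depth and 37.1% at 1000 UMIs, and the top 56 cells held 62.4% of the transcripts. In cluster 13 the share at 1000 UMIs was 56.8%. Within macrophages, Cxcl3 was at 63.9 CPM in cluster 0 against 12.9 in cluster 4, a ratio of 4.96 (3.88 to 6.45), wider than the 1.19 seen for Cxcl2.

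Because Cxcl2 was detected in nearly all neutrophils, detection could not show whether Cxcl2 and Cxcl3 divide between these cells. With each neutrophil thinned to 3000 UMIs, which left 359 cells, Cxcl2 was found in 100% of the 175 cells with Cxcl3 and in 95.1% of the 184 without it. Cxcl1 was detected in 13.1% of the former and 11.4% of the latter. At 1000 UMIs, which kept more of the shallow cells, Cxcl1 was found in 13% of the 200 neutrophils with Cxcl3 and in 7.08% of the 339 without it.

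Cxcl1 was a ligand of stromal cells, with a second, lower presence in myeloid cells. Mural cells, the contractile cells of vessel walls, had the highest level, 1774 CPM (1725 to 1824), followed by mesenchymal cells with 1470 (1455 to 1485) and cluster 13 with 1171 (1100 to 1246). Cluster 1 had 415, monocyte/macrophage cells 326 (318 to 334) and endothelial cells 255 (244 to 266). Neutrophils had 193 (175 to 212), which overlapped with cluster 14, and keratinocytes 46.0 and dendritic cells 18.0 were lowest. Mesenchymal cells held 65.9% of the library's Cxcl1 transcripts, at 55.0 UMIs a cell, against 47.7 in mural cells, 4.36 in monocyte/macrophage cells and 0.773 in neutrophils. Thinned to 1000 UMIs, Cxcl1 was found in 59.6% of mural, 54.6% of mesenchymal, 17.9% of endothelial, 17.5% of monocyte/macrophage and 9.28% of neutrophil cells. In neutrophils it was carried by few cells, since 56 of 560 held 92.1% of the UMIs, while in mesenchymal cells the top 70 of 702 held 42.1% and the median cell had 895 CPM. Endothelial cells were not uniform either: cluster 5, of blood vessel type with Plvap and Selp, had 273 CPM, and the 33 cells of cluster 15, with the lymphatic genes Ccl21a, Lyve1 and Prox1, had 37.6, a ratio of 7.26 (4.91 to 11.2).

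Cxcl5 was mainly a transcript of mesenchymal cells in this library. They had 1876 CPM (1860 to 1893) and held 95.7% of the 51520 UMIs, and mural cells with 632 (603 to 662) held a further 3.46%. Every other group of at least 50 cells was at or below 40.9, the level of cluster 13, where 35 UMIs were counted, 27 of them in 1 cell. Neutrophils had 13.4 (9.02 to 19.1), monocyte/macrophage cells 10.9 (9.48 to 12.5) and endothelial cells 2.41 (1.49 to 3.69), and from neutrophils down no level was separated from the next by its interval. The 16 mesenchymal markers stood at 0.835% of their mesenchymal level in neutrophils, 0.341% in monocyte/macrophage cells and 0.212% in keratinocytes, beside 0.713%, 0.581% and 0.217% for Cxcl5. In mural cells the markers stood at 34.1% and Cxcl5 at 33.7%, with 10 of 105 cells holding 87.6% of the transcripts and a median cell at 0, whereas Cxcl1 in the same cells stood at 121%. The part of mesenchymal transcripts in the Cxcl5 levels of these other groups was not tested.

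Within the mesenchymal class, Cxcl5 and Cxcl3 differed between its clusters. Cluster 3 (459 cells), led by Prg4, Crabp1, Timp1, Tnc, Mmp3 and Ptx3, had Cxcl5 at 2429 CPM, and cluster 6 (243 cells), led by Cilp, Aspn, Clec3b and Postn, had 265. That is a ratio of 9.17 (8.74 to 9.62). Cxcl3 differed in the same direction, with 52.2 against 17.9, or 2.92-fold (2.42 to 3.56). Yet 7 of the 702 mesenchymal cells held 43.1% of the Cxcl3 UMIs, and that interval covers counting error only. The part of these few cells in the difference was not tested. In CPM, Cxcl1 and Cxcl2 were slightly higher in cluster 6, at 1597 against 1426 and 492 against 392. Cells of cluster 3 were deeper, with medians of 41822 and 26703 UMIs in clusters 3 and 6. Counted in UMIs per cell, Cxcl1 and Cxcl2 were higher in cluster 3, so no direction is given for them. Cxcl5 was itself a leading gene of cluster 3, so its difference describes the cluster. Cell by cell, Cxcl5 had a median of 166 CPM, an upper quartile of 2144 and 55.2% of its transcripts in 70 cells. Thinned to 3000 UMIs, Cxcl1 was found in 86.0% of the 342 mesenchymal cells with Cxcl5 and in 65.8% of the 342 without it. Cxcl2 was found in 39.9% of the 519 with Cxcl1 and 10.9% of the 165 without. In monocyte/macrophage cells Cxcl1 was in 33.0% of the 1065 cells with Cxcl2 and 3.49% of the 258 without. In each of these pairs a ligand was detected more often in cells that had the other, at 1 depth for all cells. The mesenchymal pairs pool clusters 3 and 6. The monocyte/macrophage pairs pool clusters 0, 4 and 9, in which Cxcl1 was at 405, 233 and 101 CPM and Cxcl2 fell in the same order. Not every pair went this way: in monocyte/macrophage cells Cxcl1 was in 17.9% of the 28 cells with Cxcl5 and 27.4% of the 1295 without.

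**Figure D2:**
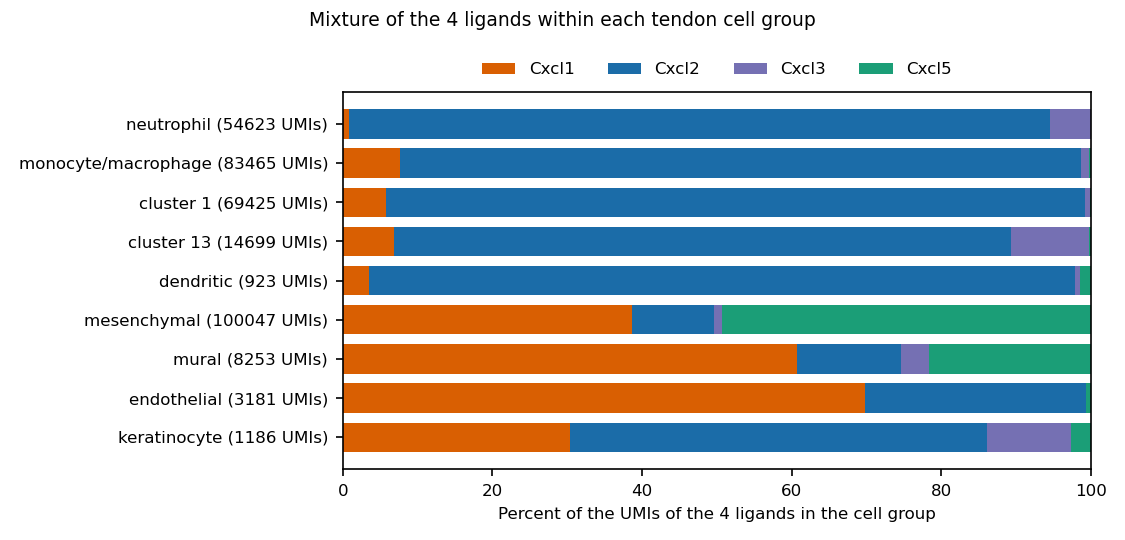
Percent of the UMIs of the 4 ligands (horizontal axis) that each ligand took in 9 cell groups of the tendon library, with the summed UMIs of the 4 in brackets. Cxcl2 takes 93.8% in neutrophils and 91.1% in monocyte/macrophage cells, and Cxcl1 with Cxcl5 takes most of the bar in mesenchymal and mural cells.

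As a mixture, the ligand transcripts differed in make-up between the cell groups. Of the ligand transcripts of neutrophils, 93.8% were Cxcl2, 5.38% Cxcl3, 0.793% Cxcl1 and 0.0549% Cxcl5, which is 118 Cxcl2 transcripts for each of Cxcl1. Monocyte/macrophage cells had 91.1% Cxcl2 and 7.60% Cxcl1, or 12.0 for each of Cxcl1. Mesenchymal cells had 49.3% Cxcl5, 38.6% Cxcl1, 11.0% Cxcl2 and 1.14% Cxcl3, with 0.284 Cxcl2 for each Cxcl1. Mural cells had 60.7% Cxcl1 and 21.6% Cxcl5. Endothelial cells were at 69.8% Cxcl1 and 29.5% Cxcl2, with almost no Cxcl3 or Cxcl5. The 4 genes together took 2.43% of all UMIs of neutrophils, 1.72% of cluster 13, 0.711% of cluster 1, 0.429% of monocyte/macrophage, 0.381% of mesenchymal and 0.292% of mural cells.

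**Figure D3:**
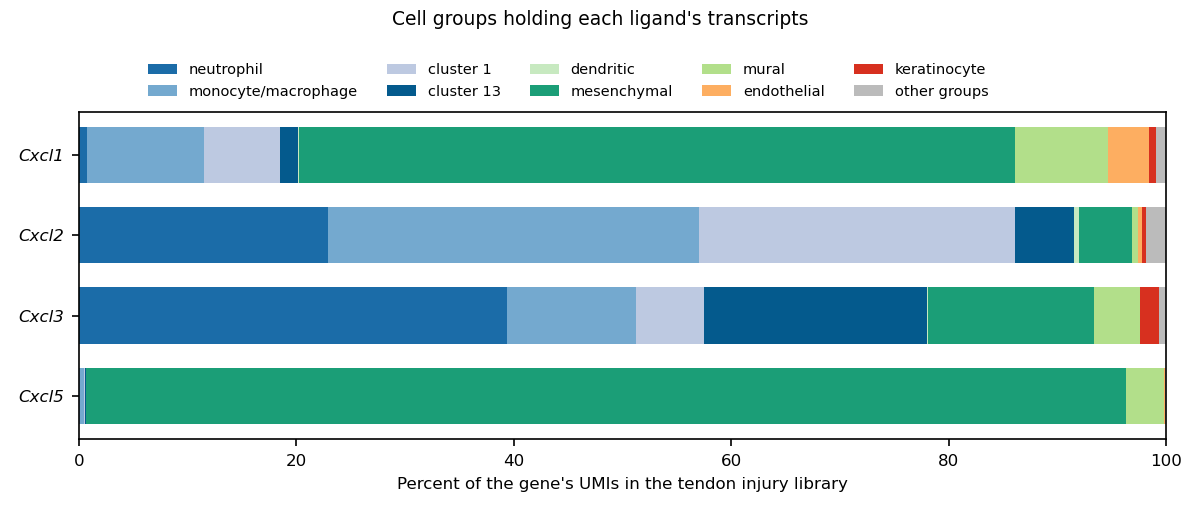
Percent of each ligand's UMIs in the tendon library (horizontal axis) held by each cell group (colors). Mesenchymal cells hold 65.9% of Cxcl1 and 95.7% of Cxcl5, while Cxcl2 and Cxcl3 are divided among neutrophils, monocyte/macrophage cells and clusters 1 and 13.

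Direct ratios between tendon groups put sizes on these contrasts. Mesenchymal against monocyte/macrophage cells, Cxcl5 was 172-fold higher (150 to 198) and Cxcl1 4.51-fold higher (4.39 to 4.63), and Cxcl2 was 9.36-fold lower. As log2 ratios these are 7.43, 2.17 and -3.23. Of 13538 genes with at least 20 UMIs in the 2 groups, 31.5% were at least 2-fold higher in mesenchymal cells and 19.8% at least 2-fold lower. At 4-fold the shares were 19.9% and 11.3%, so large differences between these classes were common. The ligands were chosen by these levels, and their sizes are given as descriptions. For Cxcl3 the log2 ratio was -0.06 (-0.19 to 0.07), and it ranged from -1.52 to 1.43 over the other settings tried, so no direction is given. Neutrophils against monocyte/macrophage cells had 29.0-fold more Cxcl3 (26.9 to 31.3) and 0.592-fold the Cxcl1 (0.536 to 0.653), where 10.8% of 11181 genes were at least 2-fold higher and 56.1% lower. The Cxcl5 levels of that pair were not separated in CPM (1.23-fold, 0.808 to 1.80). Counted in UMIs per cell, neutrophils had 8.68-fold more Cxcl3 and 0.177-fold the Cxcl1, and Cxcl5 was lower in them (0.367-fold, 0.242 to 0.540). The Cxcl3 level of monocyte/macrophage cells also moved from 45.2 to between 30.3 and 124 CPM over the other settings tried. Cluster 13 had 3.59-fold more Cxcl1, 3.63-fold more Cxcl2 and 39.5-fold more Cxcl3 than monocyte/macrophage cells, where 7.37% of genes were at least 2-fold higher and 12.5% lower. Its neutrophil markers stood at 0.996% of the neutrophil level. Cluster 1 was nearer to those cells, with 1.70-fold more Cxcl2 (1.68 to 1.72) and 2.05-fold less Cxcl5, where 4.98% of 11408 genes were at least 2-fold higher and 21.7% lower. Its Cxcl3 was not separated from theirs (1.06-fold, 0.947 to 1.19).

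Against the other tendon classes, mesenchymal cells had more Cxcl1 and Cxcl5 than neutrophils, endothelial cells and keratinocytes. Against neutrophils they had 7.62-fold more Cxcl1 and 140-fold more Cxcl5 (98.3 to 208), but 54.7-fold less Cxcl2 and 30.2-fold less Cxcl3, where 56.3% of 12855 genes were at least 2-fold higher and 14.6% lower. Against endothelial cells the 4 ligands were 5.77-fold, 3.87-fold, 189-fold (52.2 to 1563) and 778-fold (509 to 1257) higher in the order Cxcl1, Cxcl2, Cxcl3 and Cxcl5, where 16.8% of 13283 genes were at least 2-fold higher and 15.4% lower. Against keratinocytes they were 31.9-fold, 4.96-fold, 2.58-fold and 460-fold higher, where 26.5% of 13332 genes were at least 2-fold higher. Mural cells lay nearer to mesenchymal cells, with 1.21-fold the Cxcl1 (1.17 to 1.24), 2.55-fold the Cxcl3 and 2.97-fold less Cxcl5, and Cxcl2 was not separated (0.973-fold, 0.915 to 1.03). Counted in UMIs per cell the direction of Cxcl1 turned, with 1.15-fold more in mesenchymal than in mural cells (1.12 to 1.19), and Cxcl2 was 1.43-fold higher in mesenchymal cells (1.35 to 1.52). Of 12800 genes, 9.99% were at least 2-fold higher in mural cells and 14.5% lower.

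Neutrophils were found in all 3 tissues, and their Cxcl2 level differed between the libraries. Those of blood came from the mononucleated fraction and may not stand for all blood neutrophils. Marrow neutrophils (776 cells) had 69 UMIs of Cxcl2, or 4.85 CPM (3.77 to 6.13), blood neutrophils (389 cells) had 199, or 53.9 (46.7 to 62.0), and tendon neutrophils had 22830. Blood was 11.1-fold above marrow (8.43 to 14.9) and tendon 423-fold above blood (368 to 489). The marrow class pooled 3 clusters with levels from 0.43 to 15.5 CPM, so its ratios depend on their mixture. Among genes with at least 20 UMIs, 13.1% were at least 2-fold higher in blood than in marrow neutrophils and 14.4% lower, and 16.5% of 6783 were at least 2-fold higher in tendon than in blood and 15.7% lower. Tendon against marrow, Cxcl2 was 4711-fold higher (3722 to 6056), where 20.7% of 8454 genes were at least 2-fold higher and 21.7% lower. Counted in UMIs per cell, the tendon-to-blood log2 ratio of Cxcl2 was 7.48 rather than 8.73. Without the 3 naming rules set after the clusters were seen, cluster 10 joined the tendon neutrophils and their Cxcl2 level was 10429.

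The share of neutrophils with Cxcl2 moved with the level. At the cells' own depth 5.41% of marrow, 13.6% of blood and 98.9% of tendon neutrophils had a UMI, and at 1000 UMIs 0.649%, 3.89% and 96.1%. Within blood, the 39 neutrophils with the most Cxcl2 held 93.0% of its UMIs and 4 cells held 35.2%. Within marrow, cluster 2 (264 cells, led by genes such as Stfa2l1, Retnlg and Cxcr2) had 15.5 CPM, beside 53.9 in blood neutrophils. Cluster 3 (208 cells, with Mmp8 and Mmp9) had 3.84, and cluster 0 (304 cells, with Ltf and Ly6g) 0.43. The step from cluster 3 to cluster 2 was 4.02-fold (2.23 to 7.71). Blood T cells and B cells, 741 and 370 of them, had no UMI of Cxcl2, which allows up to 0.45 and 1.38 CPM at 3 counts a group, and the level in blood neutrophils was above these limits.

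The other 3 ligands were absent from the counts of blood and marrow neutrophils, and their tendon levels set lower bounds, computed against 3 counts over the group. Cxcl3 was at least 1610-fold higher in tendon than in blood neutrophils, Cxcl1 at least 237-fold and Cxcl5 at least 16.4-fold, though Cxcl5 rested on 30 UMIs, at a level close to the share that mesenchymal markers had in these cells. All 4 ligands were thus past 2-fold, where 16.5% of all genes were higher, but they were chosen by these levels. Their median log2 ratio was 8.31 beside -0.05 over all genes, with bounds included.

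**Figure D4:**
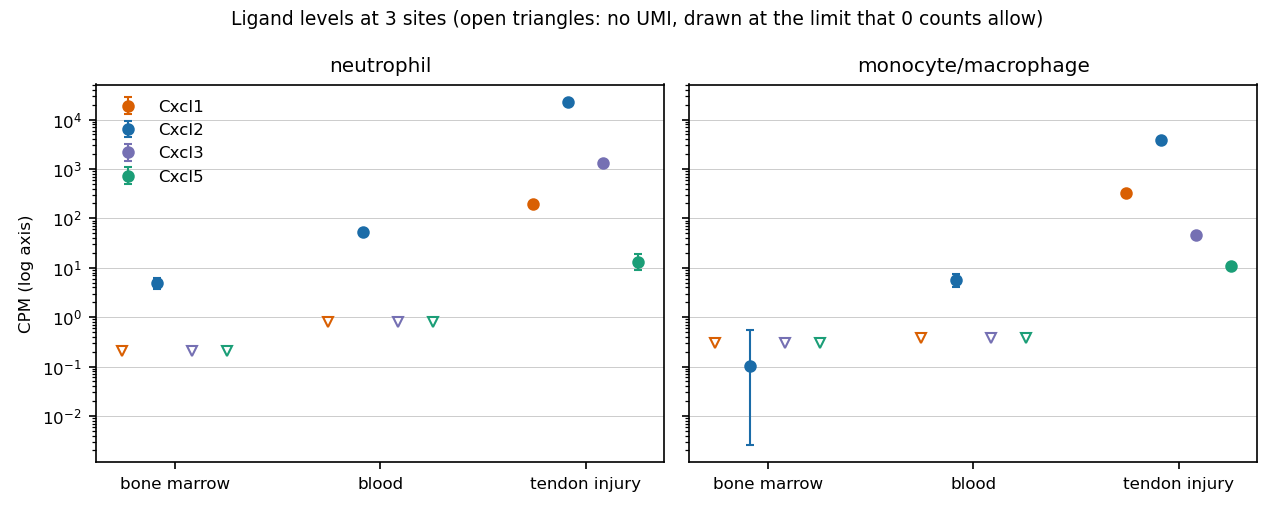
Ligand levels (CPM, log axis) in neutrophils (left) and monocyte/macrophage cells (right) of the 3 libraries; bars are 95% Poisson intervals, and open triangles mark groups with no UMI, drawn at the limit that 0 counts allow. Cxcl2 in neutrophils is at 4.85 in marrow, 53.9 in blood and 22830 in tendon, and the other 3 ligands have points only in tendon.

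In monocyte/macrophage cells, too, the tendon level stood far above those of marrow and blood. Marrow had 1 UMI of Cxcl2 in 348 cells, blood 44 in 457 cells (5.66 CPM) and tendon 76033 in 1454 cells. In blood, 43 of the 44 fell in a cluster of 37 cells, led by Prg4, C1qa, C1qc and C1qb. Without the 1% of cells that had the most Cxcl2, the blood level was 0.262 (0.0318 to 0.948) in place of 5.66 CPM, so it rested on a few cells. With all cells of both tissues, the marrow level was 0.101 CPM (0.00255 to 0.561) and the blood interval (4.11 to 7.59) lay above it. That gap rested on the same few blood cells, and marrow was not compared with its top cells left out. A step from marrow to blood across the class was therefore not shown. Tendon was 691-fold above blood for Cxcl2 (515 to 951), a ratio that rests on those 37 blood cells and whose interval covers counting error only. It was at least 845-fold above blood for Cxcl1, 117-fold for Cxcl3 and 28.3-fold for Cxcl5. Of 11532 genes, 19.8% were at least 2-fold higher and 13.2% lower. Which blood cells correspond to which tendon cells cannot be read from the names. The largest blood cluster of the class (305 cells) was led by F13a1, Vcan, Chil3 and Ccr2. Chil3 and Ccr2 also led tendon cluster 1, which lies outside the tendon class.

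Genes known to respond to tissue dissociation moved with the same contrasts. A list of 13 such immediate early and heat shock genes (Fos, Jun, Egr1 and others) summed to 347 CPM in marrow, 2187 in blood and 6663 in tendon neutrophils, and to 400, 1288 and 8065 in monocyte/macrophage cells. Of 12 measured in neutrophils, 8 were at least 2-fold higher in tendon than in blood and none lower, beside 16.5% and 15.7% of all genes. Their part in the ligand levels was not tested, and digestion cannot be told apart from injury here. Among other tendon groups the list was at 7620 in cluster 1, 7587 in cluster 13, 6326 in endothelial and 5791 in mural cells. It was at 4943 in mesenchymal, 4383 in keratinocyte and 3917 in dendritic cells. Schwann cells (31 cells) had 14203 and B cells (22 cells) 4857, beside 248 and 1083 CPM of the 4 ligands together.

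The receptor side was found in the same neutrophils. Cxcr2 was at 619 CPM in marrow, 1512 in blood and 977 in tendon neutrophils, and at 1.14 in tendon mesenchymal cells. In CPM, tendon was thus 0.646-fold of blood (0.614 to 0.679), against the 423-fold difference of Cxcl2. Cxcr1 was lower throughout, with 2.53, 33.1 and 29.4. Ackr1, the scavenger that binds inflammatory chemokines on venules, was found in endothelial cells at 247 CPM and at 11.6 or below in all other tendon groups.

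Among the other ELR ligands of the locus, only Ppbp had more than 1 UMI in the tendon, and its groups also had Cxcl2. Ppbp (platelet basic protein) was at 174 CPM in monocyte/macrophage cells and 417 in cluster 13, against 1.71 in mesenchymal cells, and Cxcl15 had 1 UMI in the tendon. Pf4, a platelet CXC chemokine without the ELR motif that lies between Ppbp and Cxcl3, was at 5966 in monocyte/macrophage cells and 8597 in cluster 13. Neither Ppbp nor Pf4 followed Cxcl1 or Cxcl5 into mesenchymal cells, where Pf4 had 29.8. Of the other CXC ligands, Cxcl14 (3273) and Cxcl12 (778), both of stromal cells, were the high ones in mesenchymal cells, at 225-fold and 240-fold above monocyte/macrophage cells.

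**Figure D5:**
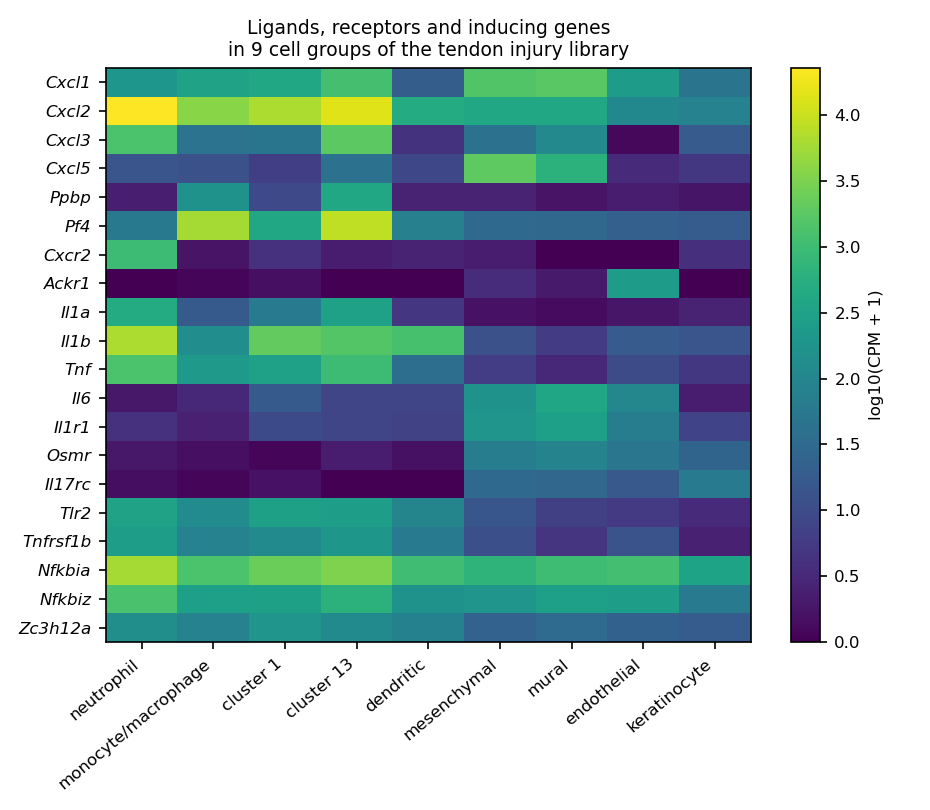
Levels of the 4 ligands and 16 related genes in 9 cell groups of the tendon library, as log10 of CPM plus 1 (color scale). Il1b and Tnf share the neutrophil and cluster 13 columns with Cxcl2 and Cxcl3, although Il1b is higher in cluster 1 than in cluster 13. Il1r1, Osmr and Il6 share the mesenchymal and mural columns with Cxcl1 and Cxcl5.

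Interleukin-1 and its receptor Il1r1 had their highest levels in different cells of the tendon. Il1b was at 6562 CPM in neutrophils, 2078 in cluster 1, 1534 in cluster 13 and 1219 in dendritic cells. It was at 138 in the named monocyte/macrophage class, which leaves out clusters 1 and 13, and at 11.1 in mesenchymal cells. Tnf was at 1351 in neutrophils, 974 in cluster 13 and 223 in monocyte/macrophage cells. Il1a was at 483 in neutrophils and 312 in cluster 13, the same pair of groups that led for Cxcl3. Il1r1 was found at 283 in mural, 189 in mesenchymal and 66.6 in endothelial cells against 1.54 in monocyte/macrophage cells. Osmr, the receptor of oncostatin M, was at 88.2, 67.3 and 50.8 in the same 3 groups, and Il17rc at 63.7 in keratinocytes and 29.4 in mesenchymal cells. Il17a had 1 UMI in the tendon, which does not show that the cytokine was absent from the tissue.

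As lists, mesenchymal against monocyte/macrophage cells, 3 of 10 measured receptors of inducing cytokines were at least 2-fold higher (Il1r1, Il17rc and Osmr) and 3 at least 2-fold lower (Tnfrsf1b, Tlr2 and Tlr4). Of 5 measured inducing cytokines, 1 was higher (Il6, 174 against 2.21 CPM) and 4 lower (Il1a, Il1b, Tnf and Osm). None of 8 NF-kB genes was higher and 1, the inhibitor Tnfaip3, was lower. The shares over all genes, 31.5% and 19.8%, apply to each of these counts.

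Between tendon and blood neutrophils, many of the pathway genes were higher in tendon along with the ligands. The lists were chosen with earlier results of these data known, so their counts are descriptions. All 8 measured genes of NF-kB and its partners were at least 2-fold higher, with a median log2 ratio of 1.98 beside -0.05 over all genes, of which 16.5% were higher and 15.7% lower. The largest of these were the feedback inhibitors Tnfaip3, 660 against 3.52 CPM, and Nfkbia, 5825 against 138 (42.3-fold, 38.7 to 46.3). Nfkbiz, a cofactor of NF-kB at secondary response genes, was at 1261 against 68.0 (18.5-fold). Of 4 inducing cytokines 3 were higher, with Tnf 249-fold (161 to 409), Il1b 5.82-fold and Il1a at 1083 UMIs against 0. Ccl3 and Ccl4, CC chemokines, were at 1472 and 2100 CPM against 0.27 and 3.52. Of 4 genes of mRNA decay, Zc3h12a, an endonuclease that cuts inflammatory mRNAs, was 9.48-fold higher (7.12 to 12.8) and Zfp36l1 2.90-fold, while Zfp36 (tristetraprolin) was 1.74-fold higher. The 2 measured receptors, Cxcr1 and Cxcr2, were not past 2-fold in CPM. Blood neutrophils were deeper, with a median of 8508 UMIs against 3492 in tendon. Counted in UMIs per cell, every tendon-to-blood ratio of neutrophils was 2.37-fold lower, and both receptors were then past 2-fold lower. The counts and medians of these lists were taken in CPM only.

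In monocyte/macrophage cells, 4 of 8 NF-kB genes and 5 of 5 inducing cytokines were at least 2-fold higher in tendon than in blood. So were 6 of 6 genes of a further list of chemokines and cytokines (Csf3, Lif, Ccl2, Ccl7, Ccl3 and Ccl4). The share over all genes was 19.8%. Ccl2 and Ccl7, which draw monocytes, were at 1016 and 526 CPM in tendon mesenchymal cells and at 796 and 685 in monocyte/macrophage cells. In CPM these are ratios of 1.28 (1.25 to 1.30) and 0.768 (0.750 to 0.786), beside the 4.51 of Cxcl1. Counted in UMIs per cell, ratios between these 2 classes were 2.80-fold higher. The direction of Ccl7 then turned, so no direction is given for it. Csf3, which mobilises neutrophils from marrow, was highest in endothelial cells at 136.

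Over the 24 tissue and cell groups of at least 50 cells, the genes whose levels were most like those of each ligand differed between ligands. By Pearson's r of log2(CPM + 10) over 13522 genes, Cxcl1 was most like Ccl2 (0.94), Errfi1 (0.94) and Phlda1 (0.93), and Cxcl2 most like Rabgef1 (0.96), Nfkbiz (0.94) and Lsmem1 (0.94). Cxcl3 was most like Adam30 (0.90), Il1a (0.89) and Gm29367 (0.85), the first and last of them at 14.7 CPM or below in every group. Cxcl5 was most like Wisp2, Loxl3 and Mmp23 (0.96 each), all highest in mesenchymal cells. Between the ligands r was 0.82 for Cxcl2 with Cxcl3, 0.81 for Cxcl1 with Cxcl2, 0.74 for Cxcl1 with Cxcl5 and 0.38 for Cxcl2 with Cxcl5. These values depended on the measure. By Spearman's rho Cxcl1 with Cxcl5 stood at 0.94 and Cxcl2 with Cxcl5 at 0.82, and Pearson's r of the latter was 0.64 with a pseudocount of 1. Of the 3 genes most like each ligand, none remained among the top 3 by Spearman's rho, and with a pseudocount of 1 there remained 1 each for Cxcl1, Cxcl2 and Cxcl3 and 0 for Cxcl5. The groups of 1 library share its preparation and depth, and r is given as a description.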

How the data were processed

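Single-cell RNA was measured with the 10x Genomics 3′ v3 chemistry in 1 library each of bone marrow, blood and tendon injury. The authors deposited raw UMI counts per gene and barcode. The matrix headers name Cell Ranger 5.0.1 and the submitters' processing notes name mm10, while an annotation was not given in the sources used here. Scanpy 1.11.5 on Python 3.11.15 was used.

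Cells with at least 200 genes and at most 20% mitochondrial UMIs were kept (15, 57 and 651 barcodes of marrow, blood and tendon were left out). Doublets were the cells ranked highest by Scrublet at 0.8% per 1000 cells (27, 38 and 198 removed), because its automatic threshold marked 1, 32 and 6. Each library was clustered on its own, with 2000 variable genes, 30 components, 15 neighbors and Leiden resolution 0.5, and without the 66 ligand and pathway genes. Among the 100 genes leading a cluster by fold, markers of each list were counted, and the list with most gave the name if at least 3 were found. It had no name, by 3 rules set after the clusters were seen, where another list had more than 50% as many, where another class led its top 10 genes, or where its median cell had no more of the class markers than other cells. The members and lists were chosen with earlier results of these data known.

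With 1 library a tissue no test was possible. Summed counts were scaled to 1000000 UMIs of a group (CPM) with exact Poisson intervals, ratios have exact binomial intervals, and shares have Clopper-Pearson intervals, all at 95% and for counting error only. A group at 0 was set to 3 counts for bounds. Shares of cells were also taken after thinning each cell to 1000 (or 500 or 3000) UMIs, leaving out shallower cells. Genes with at least 20 UMIs over both groups and a ratio of at least 2 were counted. Genes named were the 4 ligands, the members of the lists with at least 100 UMIs in a group, and the 3 genes most like each ligand. Cxcl11, Cebpd and the markers Trac, Trbc1, Trbc2, Ighm and Ighd were not used here. Promoters came from RefSeq (3 of 4 ligands matched), gene models from GENCODE M21. The ratio and naming steps were tested on simulated data.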

Additional observations from a re-analysis of the deposited data

How the results depend on the processing

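Log2 ratios of each ligand between mesenchymal and monocyte/macrophage cells of the tendon (first) and between tendon and blood neutrophils (second) were recomputed under every other setting listed here. Main values were 2.17, -3.23, -0.06 and 7.43 for Cxcl1, Cxcl2, Cxcl3 and Cxcl5 in the first, and 7.89, 8.73, 10.65 and 4.04 in the second, where all but Cxcl2 are bounds. In the first ratio, Cxcl1, Cxcl2 and Cxcl5 kept their direction in every setting run, and Cxcl3 did not. In the second, Cxcl2 kept its direction. Cxcl1, Cxcl3 and Cxcl5 had no UMI in blood neutrophils in any setting, so no setting could show them lower in tendon. Values beyond the counting interval were as follows. With no filter on cells, the first ratio was 2.09 for Cxcl1, -3.38 for Cxcl2 and -1.51 for Cxcl3, and the second 8.09 for Cxcl1 and 10.77 for Cxcl3. With at least 500 genes and at most 10% mitochondrial UMIs, the first ratio was 2.01 for Cxcl1, -3.34 for Cxcl2 and -1.12 for Cxcl3. With no doublets removed, the first ratio was 1.91 for Cxcl1, -3.33 for Cxcl2, -1.35 for Cxcl3 and 7.17 for Cxcl5, and the second 8.03 for Cxcl1 and 10.47 for Cxcl3. With Scrublet's automatic threshold, the first ratio was 1.81 for Cxcl1, -3.47 for Cxcl2 and -1.25 for Cxcl3, and the second 10.45 for Cxcl3. At Leiden resolution 0.3, the first ratio was 2.12 for Cxcl1, -3.28 for Cxcl2 and -1.34 for Cxcl3. At Leiden resolution 1.0, the first ratio was 1.88 for Cxcl1, -3.51 for Cxcl2 and -1.27 for Cxcl3, and the second 10.78 for Cxcl3. With the ligand and pathway genes kept for clustering, the first ratio was 2.01 for Cxcl1, -3.41 for Cxcl2 and -1.52 for Cxcl3. With cells named one by one, the first ratio was 2.05 for Cxcl1, -3.52 for Cxcl2 and -0.78 for Cxcl3, and the second 8.31 for Cxcl1 and 10.58 for Cxcl3, and among named classes of at least 50 cells in the 3 tissues 9 ligand levels in place of 15 reached 100 CPM. With 50 leading genes for naming, the first ratio was 2.06 for Cxcl1 and -3.31 for Cxcl2. With the 3 libraries clustered together, the first ratio was 1.95 for Cxcl1, -3.60 for Cxcl2 and -1.12 for Cxcl3. With cells weighted equally, the first ratio was 1.996 for Cxcl1, -3.31 for Cxcl2, -0.73 for Cxcl3 and 6.52 for Cxcl5. With genes above 1% of UMIs, mitochondrial and ribosomal protein genes left out of the totals, the first ratio was 2.11 for Cxcl1 and -3.29 for Cxcl2, and the second 7.60 for Cxcl1, 8.43 for Cxcl2 and 10.36 for Cxcl3. Without the 1% of cells of a class with the most UMIs of the gene, the first ratio was 2.36 for Cxcl1, -3.37 for Cxcl2, -0.27 for Cxcl3 and 8.12 for Cxcl5, and the second 7.31 for Cxcl1, 9.23 for Cxcl2 and 10.40 for Cxcl3. With unnamed clusters 1 and 13 joined to the monocyte/macrophage class, the first ratio was 1.96 for Cxcl1, -3.61 for Cxcl2 and -1.14 for Cxcl3. Counted in UMIs per cell, the first ratio was 3.66 for Cxcl1, -1.74 for Cxcl2, 1.43 for Cxcl3 and 8.91 for Cxcl5, and the second 6.65 for Cxcl1, 7.48 for Cxcl2, 9.41 for Cxcl3 and 2.80 for Cxcl5. Without the 3 later naming rules, the second ratio was 7.54 for Cxcl1, 7.59 for Cxcl2, 9.45 for Cxcl3 and 3.402 for Cxcl5. The last 3 settings were chosen after seeing the data. The cause of these moves was not tested, except that cells of cluster 13, rich in Cxcl3, count as monocyte/macrophage once joined. Of 500 recomputed levels of the 4 ligands, 437 stayed within 1.5-fold and 163 left their counting interval. The 437 include levels of Cxcl1, Cxcl3 and Cxcl5 in blood and marrow that were 0 in every setting, and so could show no move. No paired analysis was possible because each tissue has 1 library and the results come from no test. Depth limits the low levels: 1 UMI is the whole signal of Cxcl2 in marrow monocyte/macrophage cells.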
